A study of Mus musculus with 6 samples.

Results

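The fibroblast growth factor (FGF) genes of mesenchyme and their feedback genes were described here as 10 genes chosen by symbol: the ligands Fgf1, Fgf2, Fgf7, Fgf10, Fgf18 and Fgf21, the receptors Fgfr1 and Fgfr2, and the Sprouty genes Spry2 and Spry4. All 10 were found among the 23420 genes of the count table, and 8 passed the filter on low counts. Fgf1, with 0 to 4 reads per library, and Fgf18, with 0 or 1, did not and were not tested. The cells were bone marrow-derived mesenchymal stromal cells (MSCs), adherent cells of the marrow stroma grown from the bone marrow of young female C57BL/6 mice in AMEM with serum. In 3 libraries, labelled Ctl MSC, the cells carried the empty AP2 retroviral construct. In the other 3 libraries, labelled MSC-TPr, they carried the same construct with the genes coding for the thymoproteasome subunits β1i, β2i and β5t (Psmb9, Psmb10 and Psmb11). The AP2 construct contains eGFP as a marker of its expression. No source used here says that the libraries came from separate cultures or animals, so the p-values measure the spread between these libraries, which may be technical.

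FGF ligands bind receptor tyrosine kinases on the cell surface together with heparan sulfate, and the receptors pass the signal through the adaptor FRS2 to RAS and the MAP kinases. Sprouty proteins are induced by this signal and dampen it, so their transcripts are commonly read as a trace of pathway activity. Mesenchymal cells mainly carry FGFR1, and they secrete FGF7 and FGF10, which act on epithelial cells that carry a splice form of FGFR2. FGF21 is different, as it circulates and requires β-Klotho as a co-receptor.

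The libraries held 16158756 to 22158887 reads on genes. The limit of detection was set at 3 reads, or 0.139 to 0.181 CPM (counts scaled to the size of the library, with TMM factors). This limit covers counting error only. The transduced genes did not separate the labels: Psmb11 had 2 to 4 reads in the Ctl MSC libraries and 1 to 6 in the MSC-TPr libraries, and the groups also overlapped for Psmb9 and Psmb10. The first principal component, with 58.5% of the variance, placed Ctl MSC 1 beside MSC-TPr 2 and 3 and MSC-TPr 1 beside Ctl MSC 2 and 3. The level of cell division genes (mean log2 CPM of 20) showed the same arrangement, with 6.53, 3.20 and 3.18 in Ctl MSC libraries 1 to 3, against 3.23, 6.41 and 6.49 in MSC-TPr libraries 1 to 3. The second principal component, with 28.3% of the variance, separated the labels. On it, Ctl MSC libraries 1 to 3 were at -48.9, -20.4 and -19.6, and MSC-TPr libraries 1 to 3 at 49.2, 24.2 and 15.6. The labels were kept, and fold changes between the groups are given over all 6 libraries and over libraries 2 and 3 of each group. Of 11 MSC markers, 10 passed the filter, 4 with a positive and 6 with a negative log2 fold change in MSC-TPr (median -0.15). Their median over libraries 2 and 3 was 0.33, with 3 called higher and 1, Nt5e, called lower. There, 40.0% of all genes were called, 20.6% higher and 19.4% lower. Thy1 (CD90), with 1 read in a single library, did not pass the filter. Nt5e (CD73), the marker whose groups did not overlap, measured 11.4 to 20.2 CPM in Ctl MSC and 2.66 to 5.24 CPM in MSC-TPr. The 9 markers of other cell types summed to 3.02 to 10.4 CPM in Ctl MSC and 1.99 to 14.2 CPM in MSC-TPr, with Emr1 (Adgre1) and Epcam at 0 reads in every library and Ptprc at 0 to 2.

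The promoters of the 3 ligands on which the results turn are shown as the 250 bases before the RefSeq start (GRCm38.p6), written 5′ to 3′ on the gene's own strand. Capitals mark matches, on either strand, to 5 short motifs: the TATA box TATAAA, the GC box GGGCGG, the ETS element CCGGAAG, the E-box CACGTG and the ATF4-C/EBP element TGATGNAAT.
Fgf10, chr13:118714449-118714698, + strand: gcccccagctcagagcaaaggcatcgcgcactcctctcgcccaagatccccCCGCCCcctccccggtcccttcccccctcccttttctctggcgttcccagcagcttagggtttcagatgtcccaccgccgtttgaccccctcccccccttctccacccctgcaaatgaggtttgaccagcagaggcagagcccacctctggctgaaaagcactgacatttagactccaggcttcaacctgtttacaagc
Fgf7, chr2:126034408-126034657, + strand: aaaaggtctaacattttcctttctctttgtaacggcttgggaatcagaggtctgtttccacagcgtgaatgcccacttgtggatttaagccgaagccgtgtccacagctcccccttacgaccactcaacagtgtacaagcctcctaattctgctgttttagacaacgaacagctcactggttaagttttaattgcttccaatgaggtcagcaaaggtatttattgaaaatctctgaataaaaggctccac
Fgf21, chr7:45615491-45615740, - strand: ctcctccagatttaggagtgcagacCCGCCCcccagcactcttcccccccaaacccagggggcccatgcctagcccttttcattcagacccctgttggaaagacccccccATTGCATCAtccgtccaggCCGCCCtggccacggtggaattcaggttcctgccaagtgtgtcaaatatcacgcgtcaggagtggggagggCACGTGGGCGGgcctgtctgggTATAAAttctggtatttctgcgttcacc
The Fgf21 window held a TATA box 28 to 23 bases before the start, 3 GC boxes, an E-box that shares 1 base with a GC box, and the ATF4-C/EBP element on the opposite strand, 140 to 132 bases before the start. That element was present in 0.816% of 32851 promoter windows of the same length, the TATA box in 12.4%, the E-box in 6.02% and the GC box in 32.7%. The Fgf10 window held 1 GC box and the Fgf7 window none of the 5 motifs. The ETS element, found in 6.91% of all windows, was in none of the 7 member windows available. These are matches of letters only. The windows also differed in base composition, with 61.2% G and C for Fgf10, 59.6% for Fgf21 and 43.6% for Fgf7, where the median window had 52.4%.

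Levels were first compared between members on a per-length scale, in CPM per kb of exon. Averaged over the 6 libraries, Fgf7 was highest at 68.5, followed by Fgfr1 at 20.2, Spry2 at 13.3, Fgf21 at 5.85, Fgf10 at 3.61, Spry4 at 2.80, Fgfr2 at 0.727 and Fgf2 at 0.107. Fgf7, which encodes keratinocyte growth factor, lay above 94.5% of all genes tested and Fgfr1 above 78.6%, while Fgf2 lay above 0.883%. Only Fgfr1 and Spry2 had neighbouring ranges that did not overlap, at 17.9 to 22.1 and 6.28 to 16.7. Fgf7 exceeded Fgfr1 in 5 of 6 libraries, MSC-TPr 1 being the exception at 18.7 against 22.1. Fgf21, Fgf10 and Spry4 were not separable from each other, as each pair of neighbours kept its order in 4 of 6 libraries. The order was the same when the longest coding transcript replaced the exon union as length, although Fgfr2 then reached 1.74. The exons of Fgfr2 share 314 bases with Ctbp2 on the same strand, so its level is less certain than the others.

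**Figure D1:**
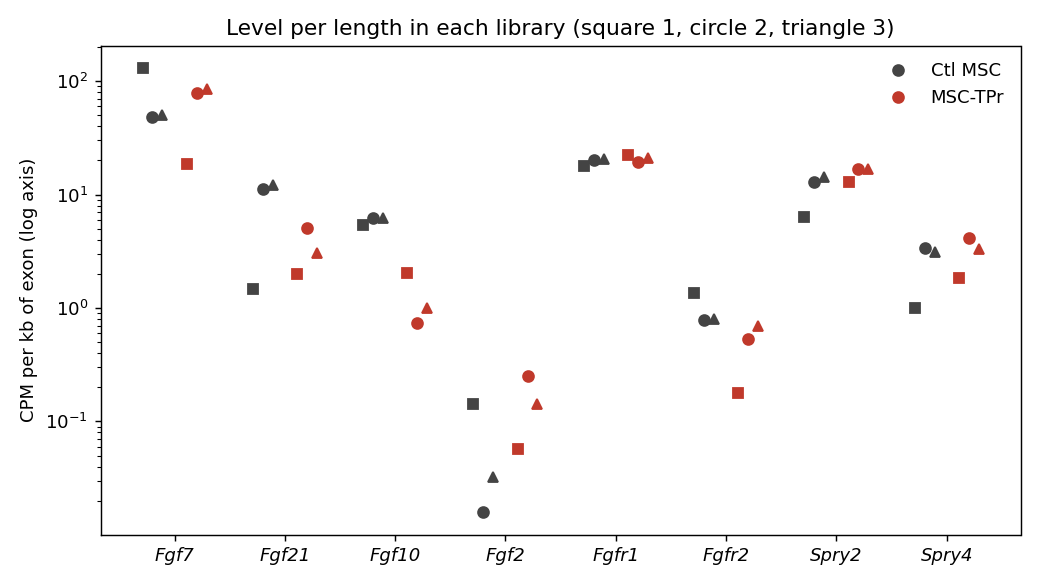
Level per length (CPM per kb of exon, log axis) of the 8 members tested, with 1 point per library. Grey marks are Ctl MSC, red marks MSC-TPr, and squares, circles and triangles are libraries 1, 2 and 3. Fgf7 spans 18.7 to 130.3 and Fgfr1 stays between 17.9 and 22.1.

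The question asked of these libraries was how expression of the thymoproteasome subunits changes MSC transcription, and the members were read from a test over all 11974 genes. With 6 libraries, 0 of the 8 members tested were called by edgeR's quasi-likelihood test (adjusted p under 0.05, log2 fold change of at least 0.5), where 0.426% of all genes were called, 0.0251% higher and 0.401% lower. Of the 8 members, 1, Fgf10, had an unadjusted p under 0.05, as had 15.0% of all genes, and DESeq2 called 1, again Fgf10, against 5.28% of genes, 3.39% being lower. The groups did not overlap for 2 of the 8 members, Fgf10 and Fgfr2, both lower in MSC-TPr, which is 25% of members where 22.7% of all genes did not overlap. The median log2 fold change was -0.11 over the 8 members and 0.01 over all genes tested. Over libraries 2 and 3 of each group, edgeR called 4 of the 8 members, Fgf2 and Fgf7 higher and Fgf10 and Fgf21 lower, where 40.0% of all genes were called (20.6% higher and 19.4% lower). Fgf2 passed the filter there only through its MSC-TPr libraries. DESeq2 also called 4 over these libraries, where it called 35.2% of all genes, 18.6% higher and 16.6% lower. In libraries 2 and 3 alone, both MSC-TPr libraries had a high and both Ctl MSC libraries a low cell division level, so label and cell division cannot be told apart there. This choice leaves out the library of each group that the first principal component set apart. SDs and p-values over libraries 2 and 3 therefore exclude that spread.

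**Figure D2:**
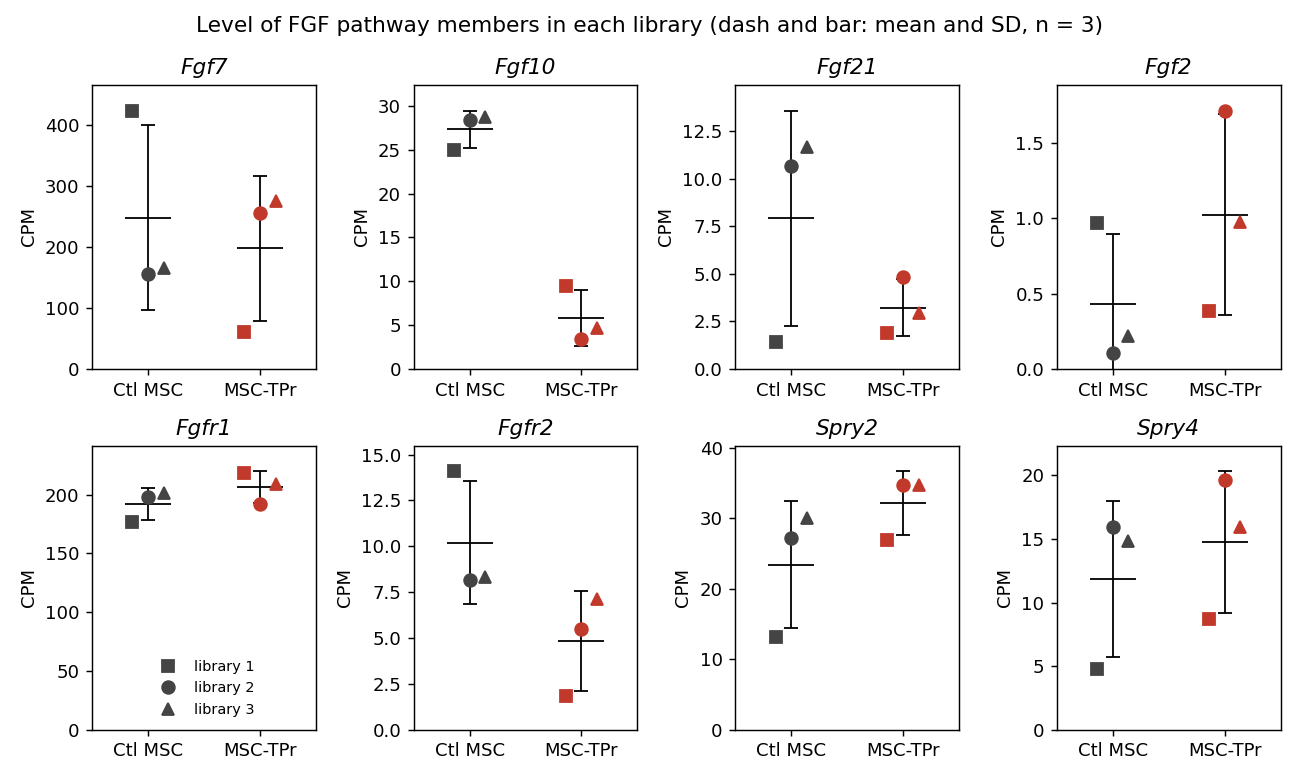
CPM of the 8 members in each library, each panel on its own axis from 0. Squares, circles and triangles are libraries 1, 2 and 3, and the dash and bar give the mean and SD of 3 libraries. The groups are apart for Fgf10 and Fgfr2, and overlap in the other panels.

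Fgf10, a mesenchymal ligand required for the outgrowth of lung and limb buds, had the largest fold change of the members over the 6 libraries. The gene spans bases 118714699 to 118792573 of chromosome 13 (GRCm38, from RefSeq), and it measured 24.9, 28.4 and 28.7 CPM in Ctl MSC libraries 1 to 3, against 9.41, 3.37 and 4.64 CPM in MSC-TPr libraries 1 to 3, from 413 to 532 and 57 to 170 reads. Every library labelled MSC-TPr was below every library labelled Ctl MSC, including the libraries numbered 1. The means were 27.4 ± 2.1 and 5.81 ± 3.19 CPM (SD, n = 3 each). The log2 fold change was -2.24 (adjusted p = 0.084 by edgeR, SE 0.397, 95% interval -3.19 to -1.28), or 4.71-fold lower. This missed the threshold, while DESeq2 gave -2.22 with an adjusted p of 1.8e-05. An exact permutation test over the 6 libraries gave p = 0.1 (two-sided), the smallest that 3 libraries against 3 allow.

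The difference in Fgf10 was larger without the libraries numbered 1, at 28.6 ± 0.229 against 4.01 ± 0.896 CPM (SD, n = 2 each), with -2.82 on the log2 scale (adjusted p = 0.00027 by edgeR, SE 0.189). These SDs and this p-value leave out the spread that the libraries numbered 1 add. In the libraries numbered 1 alone, Ctl MSC 1 was 2.65-fold above MSC-TPr 1, a comparison with no replicate check. With the cell division level of each library as a covariate the log2 fold change was -2.11 (edgeR adjusted p = 0.0025). Ctl MSC 1 was the only Ctl MSC library with a high level, and MSC-TPr 1 the only MSC-TPr library with a low level. In every fit with this covariate, the label effect therefore rests on these libraries, which have no replicate at their level. Leaving out each library in turn gave -2.77 to -1.96, and only the fit without MSC-TPr 1 passed the threshold (edgeR adjusted p = 0.043, and 0.307 at the highest). In these bulk samples, fewer Fgf10-expressing cells and less Fgf10 RNA per cell cannot be told apart. The MSC marker Nt5e was lower in every MSC-TPr library too (log2 fold change -2.02, edgeR adjusted p = 0.079, and -1.99 with 0.00081 over libraries 2 and 3), and its part in the result was not tested. Fgf10 shares 123 exon bases with the antisense gene Gm16263, and whether the counting used strand is not given, though the library kit was stranded.

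Fgf7, which is closely related to Fgf10 and shares its epithelial receptor, behaved otherwise. The gene, at 126034658 to 126091185 on chromosome 2, measured 423, 155 and 165 CPM in Ctl MSC libraries 1 to 3, against 60.7, 256 and 276 CPM in MSC-TPr libraries 1 to 3. The groups overlapped, and the highest and the lowest level were both in libraries numbered 1. The log2 fold change was -0.33 (adjusted p = 0.850 by edgeR, SE 0.638, 95% interval -1.85 to 1.2) over all 6 libraries. Over libraries 2 and 3 it was called higher in MSC-TPr, at 0.74 (adjusted p = 0.0043 by edgeR, SE 0.116), with 160 ± 6.45 against 266 ± 14.0 CPM (SD, n = 2 each). With cell division as a covariate it was called lower, at -1.02 (adjusted p = 0.015 by edgeR, SE 0.188). Without Ctl MSC 1 the log2 fold change turned to 0.31, and without MSC-TPr 1 to 0.10. The libraries with the highest Fgf7 (Ctl MSC 1, MSC-TPr 2 and MSC-TPr 3) were also those with the highest cell division levels.

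The balance of these ligands was read within each library, as the ratio of Fgf7 to Fgf10 per kb of exon. This ratio was 24.0, 7.75 and 8.11 in Ctl MSC libraries 1 to 3, against 9.13, 107.6 and 84.2 in MSC-TPr libraries 1 to 3. MSC-TPr 2 and 3 were above all other libraries, and MSC-TPr 1 fell among the Ctl MSC libraries. Fgf7 exceeded Fgf10 in every library.

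Fgf21, an endocrine FGF induced by metabolic and endoplasmic reticulum stress, lies on chromosome 7 from 45613890 to 45615490. It measured 1.39, 10.7 and 11.6 CPM in Ctl MSC libraries 1 to 3, against 1.88, 4.85 and 2.92 CPM in MSC-TPr libraries 1 to 3. Ctl MSC 1 was the lowest of all libraries, and Ctl MSC 2 and 3 were the highest. The log2 fold change was -1.30 (adjusted p = 0.481 by edgeR, SE 0.764, 95% interval -3.13 to 0.53) over 6 libraries. Over libraries 2 and 3 it was -1.53 (adjusted p = 0.0057 by edgeR, SE 0.262), with 11.2 ± 0.676 against 3.89 ± 1.36 CPM (SD, n = 2 each). The libraries numbered 1 did not show this fall, as MSC-TPr 1 was 1.36-fold above Ctl MSC 1. The fit with cell division as a covariate gave -0.65 (edgeR adjusted p = 0.640). Klb, the β-Klotho co-receptor of FGF21, had 0 to 5 reads per library, and the related Kl had 0 in every library, which allows up to 0.181 CPM.

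Fgf2, a ligand widely added to MSC cultures as a mitogen, was near the limit of detection, with 16, 2 and 4 reads in Ctl MSC libraries 1 to 3, against 7, 29 and 21 reads in MSC-TPr libraries 1 to 3. These reads correspond to 0.966, 0.107 and 0.221 CPM and to 0.388, 1.72 and 0.974 CPM. The groups overlapped, and the 3 highest libraries were again those with high cell division levels. The log2 fold change was 1.26 (adjusted p = 0.549 by edgeR, SE 0.881, 95% interval -0.86 to 3.37) over 6 libraries. It was 2.97 over libraries 2 and 3 (adjusted p = 0.0083 by edgeR, SE 0.567), where Ctl MSC 2 was below the limit of 3 reads. Fgf2 passed the filter of that fit only through the MSC-TPr libraries, where it was high, so the call carries little weight. Leaving out each library in turn gave 0.69 (without MSC-TPr 2) to 2.60 (without Ctl MSC 1), and the cell division covariate gave 0.72 (edgeR adjusted p = 0.329), and none of these fits called it. Fgf2 lies on chromosome 3 from 37348477 to 37410106 and shares 640 exon bases with Nudt6 on the opposite strand, so its count is uncertain. Nudt6 had 27 to 53 reads per library, more than Fgf2 in each.

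Fgf1 (acidic FGF) had 4, 0 and 2 reads in the Ctl MSC libraries and 0, 2 and 1 in the MSC-TPr libraries. Fgf18, a ligand of skeletal development, had 1, 0 and 0 reads in the Ctl MSC libraries and 1, 1 and 0 in the MSC-TPr libraries. Both were at the limit of detection, and no difference was detectable at this depth. The 16 remaining mouse FGF genes were also scarce, and none passed the filter. Among them Fgf3, Fgf4, Fgf12, Fgf13 and Fgf16 had 0 reads in every library, and the highest count was 20 reads, for Fgf14 in Ctl MSC 1.

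**Figure D3:**
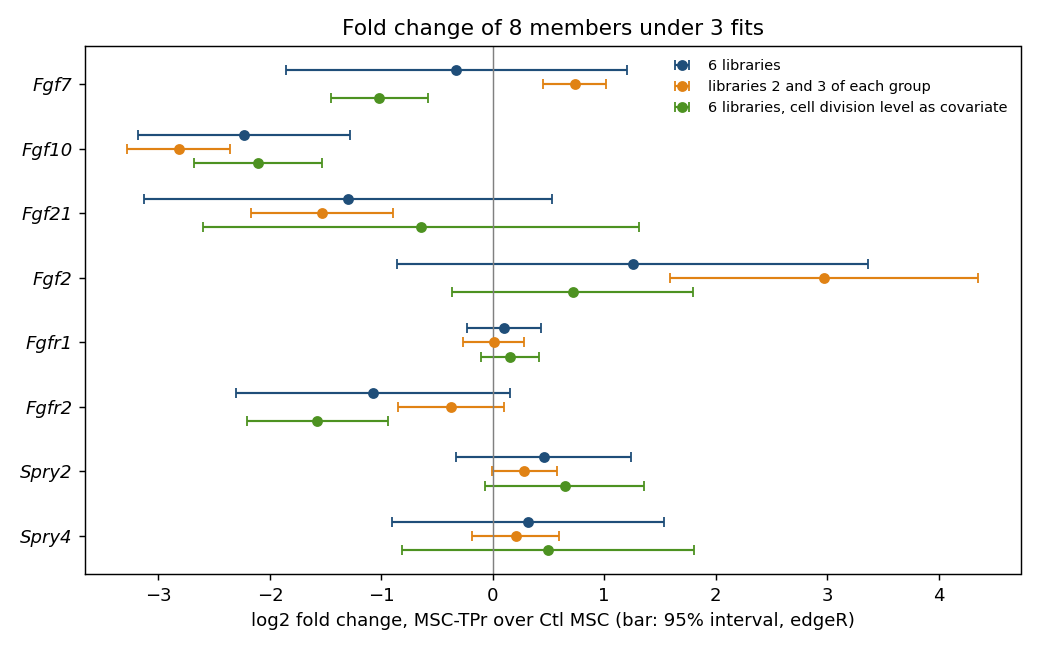
Log2 fold change of MSC-TPr over Ctl MSC (x axis) for the 8 members, from edgeR, with 95% intervals as bars. Blue is the fit over 6 libraries, orange the fit over libraries 2 and 3 of each group, and green the fit over 6 libraries with the cell division level as a covariate. Fgf10 is below 0 in the 3 fits (-2.24, -2.82 and -2.11), and Fgf7 lies on both sides of 0.

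Fgfr1, the main FGF receptor of mesenchyme, was the most even member. The gene, at 25518759 to 25575718 on chromosome 8, measured 177, 198 and 202 CPM in Ctl MSC libraries 1 to 3, against 219, 192 and 209 CPM in MSC-TPr libraries 1 to 3. The highest library exceeded the lowest by 1.24-fold, and the groups overlapped. Its log2 fold change was 0.10 (adjusted p = 0.777 by edgeR, SE 0.139), with a 95% interval from -0.23 to 0.44. Over libraries 2 and 3 it was 0.01 (adjusted p = 0.964 by edgeR, SE 0.114, 95% interval -0.27 to 0.28).

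Fgfr2, on chromosome 7 from 130162451 to 130266808, measured 14.1, 8.17 and 8.33 CPM in Ctl MSC libraries 1 to 3, against 1.83, 5.50 and 7.14 CPM in MSC-TPr libraries 1 to 3. Every MSC-TPr library was below every Ctl MSC library, with the widest gap, 7.70-fold, between the libraries numbered 1 (exact permutation p = 0.1, two-sided, the smallest possible). The log2 fold change was -1.08 (adjusted p = 0.387 by edgeR, SE 0.515, 95% interval -2.31 to 0.16) over 6 libraries and -0.37 (adjusted p = 0.164 by edgeR, SE 0.196) over libraries 2 and 3, which did not pass the test. With the cell division level as a covariate it was called lower, at -1.57 (adjusted p = 0.012 by edgeR, SE 0.276), where 12.1% of all genes were called. The covariate fit called 3 members in all, Fgf7, Fgf10 and Fgfr2, each lower, where 7.34% of genes were called lower and 4.74% higher. Each of these calls rests on Ctl MSC 1 and MSC-TPr 1, the only libraries of their labels at their cell division levels. The ratio of Fgfr1 to Fgfr2 per kb of exon was 13.1, 25.4 and 25.3 in Ctl MSC libraries 1 to 3, against 125.1, 36.6 and 30.6 in MSC-TPr libraries 1 to 3, so it was higher in each MSC-TPr library. Gene counts do not tell the splice forms of Fgfr2 apart.

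The Sprouty genes Spry2 and Spry4 did not separate the labels. Spry2, on chromosome 14 from 105891947 to 105896819, measured 13.1, 27.2 and 30.0 CPM in Ctl MSC libraries 1 to 3, against 26.9, 34.8 and 34.7 CPM in MSC-TPr libraries 1 to 3. Spry4, on chromosome 18, measured 4.77, 16.0 and 14.8 CPM in Ctl MSC libraries 1 to 3, against 8.69, 19.6 and 15.9 CPM in MSC-TPr libraries 1 to 3. Ctl MSC 1 was the lowest library for both genes, and MSC-TPr 1 was the lowest of its group for both. The log2 fold change of Spry2 was 0.46 (adjusted p = 0.560 by edgeR, SE 0.328, 95% interval -0.33 to 1.24) over 6 libraries and 0.28 (adjusted p = 0.101 by edgeR, SE 0.121) over libraries 2 and 3. For Spry4 these values were 0.31 (adjusted p = 0.819 by edgeR, SE 0.509, 95% interval -0.91 to 1.53) and 0.21 (adjusted p = 0.326 by edgeR, SE 0.160). Without Ctl MSC 1, the log2 fold change of Spry4 was -0.060 and that of Spry2 0.17.

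The rest of the pathway was read from 5 lists that hold 77 other genes, of which 52 passed the filter. With 6 libraries, edgeR called 0 of the 52, where 0.426% of all genes were called, and 8 had an unadjusted p under 0.05, where 15.0% of all genes had. DESeq2 called 3, among them Spred3 and Etv4, each higher in MSC-TPr, where it called 1.89% of all genes higher. The groups did not overlap for 10 of the 52 (19.2%, against 22.7% of all genes), 6 higher and 4 lower, and the median log2 fold change was 0.05. Over libraries 2 and 3, 28 of 53 genes tested were called (52.8%, against 40.0% of all genes), 15 higher and 13 lower, where 20.6% of all genes were called higher and 19.4% lower. The gene tested only there, Gpc2, was called lower and passed the filter only through the Ctl MSC libraries.

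Among other receptors, 3 of 7 genes passed the filter. Fgfr3 was low, with 1.03, 1.07 and 0.827 CPM in Ctl MSC libraries 1 to 3, against 2.33, 1.89 and 2.09 CPM in MSC-TPr libraries 1 to 3. Every MSC-TPr library was above every Ctl MSC library, with a log2 fold change of 1.1 (adjusted p = 0.185 by edgeR, SE 0.298) over 6 libraries and 1.07 (edgeR adjusted p = 0.028) over libraries 2 and 3. DESeq2 did not call Fgfr3 over libraries 2 and 3 (adjusted p = 0.159). Its exons share 998 bases with G630022F23Rik on the opposite strand, so its count is uncertain. Fgfrl1, a receptor that lacks the kinase domain, measured 45.6, 58.2 and 59.6 CPM in Ctl MSC libraries 1 to 3, against 38.6, 23.5 and 31.3 CPM in MSC-TPr libraries 1 to 3. All MSC-TPr libraries were lower, with a log2 fold change of -0.81 (adjusted p = 0.199 by edgeR, SE 0.228) over 6 libraries and -1.1 (edgeR adjusted p = 0.0036) over libraries 2 and 3. Fgfr4 had at most 1 read in a library.

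Of the heparan sulfate genes, which encode the carriers of this sugar chain and the enzymes that build or modify it, 18 of 21 passed the filter. Over 6 libraries, 0 were called by edgeR (0.426% of all genes) or by DESeq2 (5.28%), and 0 had an unadjusted p under 0.05 (15.0%). Their log2 fold changes ran from -0.30 to 0.47. The groups did not overlap for the glypican Gpc4, at 71.0 to 79.1 CPM in Ctl MSC and 80.2 to 98.7 CPM in MSC-TPr, and for the sulfotransferase Hs2st1, at 73.1 to 73.6 CPM in Ctl MSC and 49.8 to 66.8 CPM in MSC-TPr. Neither was called over libraries 2 and 3, with log2 fold changes of 0.34 (edgeR adjusted p = 0.058) and -0.38 (edgeR adjusted p = 0.072). There, 8 of the 19 genes of this list that were tested were called higher and 3 lower, where 20.6% of all genes were called higher and 19.4% lower. The gene tested only there was Gpc2, with 15 and 12 reads in Ctl MSC 2 and 3, against 0 and 2 in MSC-TPr 2 and 3. It passed the filter only through the Ctl MSC libraries, where it was high, and is among those called lower.

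All 19 genes of the adaptors and the RAS-MAPK chain passed the filter, and their median log2 fold change was 0.002 over 6 libraries. Of the 19, 0 were called by edgeR, 1 was called by DESeq2 and 3 had an unadjusted p under 0.05. The shares of all genes were 0.426%, 5.28% and 15.0%. The median over libraries 2 and 3 was -0.23, and 2 of the 19 were called higher and 6 lower, where 20.6% of all genes were called higher and 19.4% lower. Mapk3 (ERK1) was lower in each MSC-TPr library, at 103 to 126 CPM in Ctl MSC against 73.8 to 91.8 CPM, with a log2 fold change of -0.49 (adjusted p = 0.233 by edgeR, SE 0.157) over 6 libraries. Mapk3 was called lower over libraries 2 and 3, at -0.503 (edgeR adjusted p = 0.020), just past the threshold of 0.5. DESeq2 gave -0.499 there, just short of the threshold, and did not call Mapk3. Map2k2, the kinase above it, was at 155 to 162 CPM in Ctl MSC and 132 to 135 CPM in MSC-TPr, with a log2 fold change of -0.24 (adjusted p = 0.421 by edgeR, SE 0.123) over 6 libraries and -0.23 (edgeR adjusted p = 0.129) over libraries 2 and 3.

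Of the other feedback and target genes, 12 of 14 passed the filter, with log2 fold changes from -1.30 to 1.65. Over 6 libraries, edgeR called 0 (0.426% of all genes) and DESeq2 called 2, both higher (1.89%). The groups did not overlap for 3, each higher (10.6% of all genes). Over libraries 2 and 3, edgeR called 4 higher and 3 lower, where 20.6% of all genes were called higher and 19.4% lower. Those called lower were Il17rd (-2.14), Dusp4 (-1.52) and Spry1 (-1.08). Etv4, an ETS transcription factor induced by FGF signalling, measured 23.6, 28.4 and 27.4 CPM in Ctl MSC libraries 1 to 3, against 34.7, 62.5 and 50.4 CPM in MSC-TPr libraries 1 to 3. All MSC-TPr libraries were higher, with a log2 fold change of 0.90 (adjusted p = 0.185 by edgeR and 0.038 by DESeq2, SE 0.242) over 6 libraries and 1.02 (edgeR adjusted p = 0.0031) over libraries 2 and 3. Spred3, an inhibitor related to the Sprouty proteins, was at 4.41 to 8.12 CPM in Ctl MSC and 11.1 to 15.2 CPM in MSC-TPr, with a log2 fold change of 1.06 (adjusted p = 0.185 by edgeR and 0.026 by DESeq2, SE 0.286) over 6 libraries and 0.74 (edgeR adjusted p = 0.027) over libraries 2 and 3. Spred1, of the same family, was at 68.9 to 81.4 CPM and 86.6 to 114.9 CPM, with a log2 fold change of 0.44 (adjusted p = 0.292 by edgeR, SE 0.168) over 6 libraries and 0.33 (edgeR adjusted p = 0.138) over libraries 2 and 3.

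**Figure D4:**
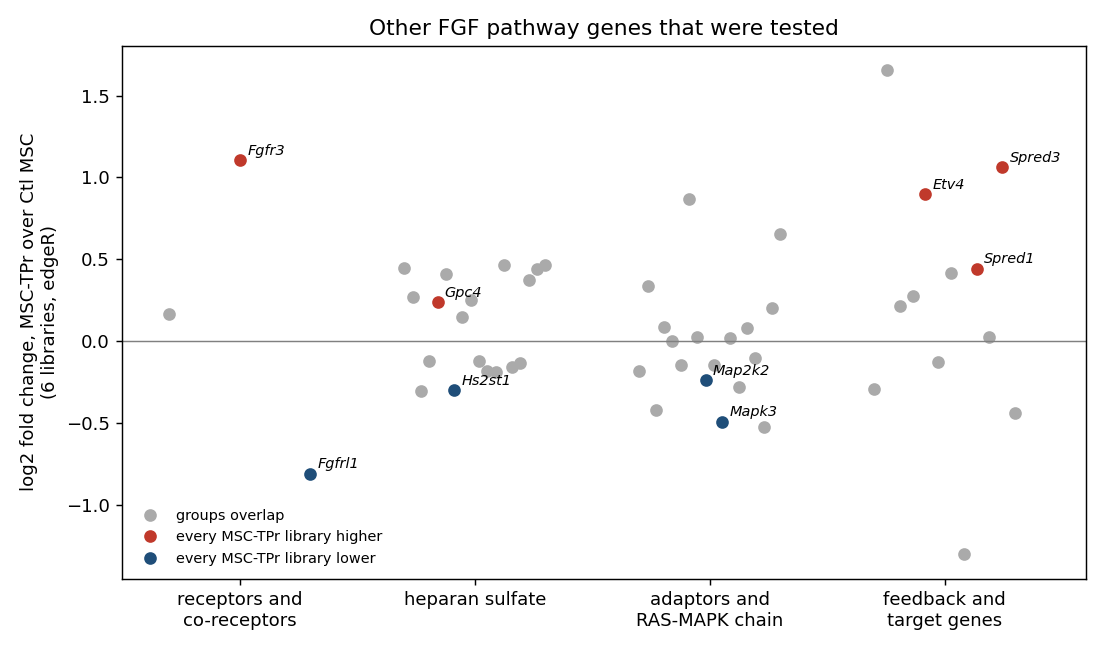
Log2 fold change of MSC-TPr over Ctl MSC (y axis, edgeR, 6 libraries) for 51 of the 52 other pathway genes that were tested, by list. Red points are genes higher in every MSC-TPr library, blue points genes lower in every MSC-TPr library, and grey points genes whose groups overlap. The 9 named genes are those without overlap among the genes drawn, 5 higher and 4 lower.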

How the data were processed

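The RNA-seq data comprised 1 table of read counts for 3 Ctl MSC and 3 MSC-TPr libraries. The authors trimmed reads with Trimmomatic 0.35, aligned them to mm10 with TopHat2 2.1.0 after base calling with CASAVA 1.8.2, and counted them per gene with Htseq-count (tools from the submitters' processing notes and the methods). These counts were deposited without normalization. The Htseq-count version, the annotation and the strand setting are not given in the sources used here. The table holds 23420 genes by symbol. Its summary lines, which name no gene (13.8% to 20.8% of reads per library), were left out of library sizes and tests.

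Counts were scaled by TMM, filtered with filterByExpr (11974 genes kept) and tested between groups with the quasi-likelihood test of edgeR 4.0.16 (R 4.3.3), without covariates. P-values were adjusted over all genes kept by the Benjamini-Hochberg method. Genes were called where the adjusted p was under 0.05 and the log2 fold change was 0.5 or more in size. CPM values use TMM-scaled library sizes. The standard error is the log2 fold change divided by the square root of F. DESeq2 1.42.0 was run as an alternative. Levels per length divide CPM by the exon length of GENCODE M21 (GRCm38, the same assembly as mm10), in kb. Both tools were tested on simulated counts with known changes.

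Alternatives were other normalizations, filters and fold thresholds, the replicate number as a block, leaving out each library, and only libraries 2 and 3 of each group. A fit with a cell division covariate (the mean log2 CPM of 20 genes), and DESeq2 on libraries 2 and 3, were added after seeing the data. The members and gene lists were chosen with earlier results of these data known. Genes named by rule besides the 10 members are, per list of other pathway genes, those called over 6 libraries by edgeR and up to 3 with the largest fold change among genes whose groups did not overlap, and, for each member tested, the gene with the highest Pearson r over the 6 libraries (log2 CPM, prior count 2). Promoter sequences are from RefSeq (GRCm38.p6), where 7 of the 10 members had an entry. The values of 1 gene of these lists are not reported here. Markers, scarce FGF genes and receptors, genes called by DESeq2, Gpc2 and feedback genes that are named besides these were chosen after their values were seen.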

Additional observations from a re-analysis of the deposited data

How the results depend on the processing

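Over all genes, 51 (0.426%) were called with 6 libraries. DESeq2 called 683 (5.28%), and the filter of at least 10 counts in every library left 31. Libraries 2 and 3 of each group gave 4854 (40.0%), or 4565 (35.2%) with DESeq2, and the cell division covariate gave 1447 (12.1%). Leaving out each library in turn gave 0 to 108 calls, with 0 without Ctl MSC 2, Ctl MSC 3 or MSC-TPr 3, 1 without MSC-TPr 2, 44 without MSC-TPr 1, and 108 without Ctl MSC 1. Of the FGF members, 0 were called with 6 libraries, 1 by DESeq2, 4 over libraries 2 and 3 (4 with DESeq2), 3 with the covariate, and 0 to 1 when each library was left out. Of the other pathway genes, 0 were called with 6 libraries, 3 by DESeq2, 28 over libraries 2 and 3 (25 with DESeq2), 7 with the covariate, and 0 when any library was left out. The cause of these differences was not tested.

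Over the 8 members tested and 15 alternatives, 119 log2 fold changes were obtained, of which 5 changed sign. These were Fgf7 at 0.74 over libraries 2 and 3 with edgeR and with DESeq2, Fgf7 among the fits that left out 1 library (-0.64 to 0.31), and Spry4 among those fits (-0.060 to 0.58). Another 11 passed the threshold in the same direction, and 103 kept both direction and side of the threshold.

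A replicate block gave 0 calls over all genes, so 0 members and 0 other pathway genes, with Fgf10 at -2.37 (edgeR adjusted p = 0.489). Departures from the group mean correlated between libraries with the same number at -0.764, -0.593 and -0.603, and no library correlated best with its own number. Libraries with the same number also had opposite cell division levels. These correlations therefore cannot tell whether such libraries shared a culture or a batch. Depth limited Fgf1, Fgf18 and Fgf2, whose reads were at or near the limit of 3.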

Other observations

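For each member tested, the gene with the most similar pattern was taken as the one with the highest Pearson r of log2 CPM across the 6 libraries. The 6 libraries share labels and cell division levels, and the values are descriptions with no test. For Fgf10 it was Gbp6, an interferon-induced GTPase (r = 0.995), which measured 7.79, 8.33 and 8.11 CPM in Ctl MSC libraries 1 to 3, against 1.94, 0.710 and 1.16 CPM in MSC-TPr libraries 1 to 3, and 170 genes had an r over 0.95. For Fgf21 it was Gdf15, a cytokine induced by cell stress (r = 0.991), at 15.3, 81.7 and 81.5 CPM in Ctl MSC libraries 1 to 3, against 22.9, 36.9 and 25.8 CPM in MSC-TPr libraries 1 to 3, and 25 genes had an r over 0.95. For Fgf7 it was Ngly1 (r = 0.999), for Fgf2 Ppp1r14b (r = 0.998), for Fgfr1 Zbtb22 (r = 0.997) and for Fgfr2 Ssr1 (r = 0.998). The Sprouty genes were nearest to Slc7a5, an amino acid transporter (Spry2, r = 0.989), and to Pmaip1, a BCL2 family member (Spry4, r = 0.984).

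Several feedback genes outside the naming rule, chosen after their values were seen, differed more between libraries of 1 label than between labels. Spry1 measured 2.30, 13.1 and 14.7 CPM in Ctl MSC libraries 1 to 3, against 9.14, 6.80 and 6.31 CPM in MSC-TPr libraries 1 to 3. Dusp4, a phosphatase of MAP kinases, measured 28.3, 115 and 116 CPM in Ctl MSC libraries 1 to 3, against 131, 42.7 and 38.0 CPM in MSC-TPr libraries 1 to 3, low in each library with a high cell division level. Dusp6, which acts on ERK, measured 29.8, 61.7 and 56.9 CPM in Ctl MSC libraries 1 to 3, against 32.1, 82.3 and 57.8 CPM in MSC-TPr libraries 1 to 3, low in both libraries numbered 1. Dusp5 and Il17rd had the largest log2 fold changes of that list, 1.65 and -1.30 over 6 libraries (edgeR adjusted p = 0.336 and 0.383). Their groups overlapped. With the cell division covariate, Dusp5 was called higher, at 1.08 (edgeR adjusted p = 0.032), and Il17rd was not called (edgeR adjusted p = 0.174). That fit called 12.1% of all genes, and its label effect rests on Ctl MSC 1 and MSC-TPr 1.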
